A study of Mus musculus with 2 samples.

Results

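Mid pachytene cluster 7 is 1 of the 4 clusters that the submitters annotated as mid pachytene spermatocytes in single-cell RNA sequencing of mouse testis. Its members are the cells with the deposited stage name mP and the deposited cluster number 7, and they number 815 of 17253 annotated cells and of 3708 mid pachytene cells. The other mid pachytene clusters, 2, 4 and 11, hold 1407, 869 and 617 cells. The library labelled Zfp541-/-, called knockout-labelled here, and the WT library both came from testis of adult C57BL/6 mice. The labels do not give the number of mice behind a library, the deleted part of Zfp541 or the way the allele was made. Both suspensions were sorted by flow cytometry for germ cells of tetraploid DNA content, and single cells were captured with the 10x Chromium kit, version 3, that counts transcripts at the 3' end. The annotated cells nevertheless run from spermatogonia to spermatids, and round and elongated spermatids were annotated in the WT library only.

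At pachytene, homologous chromosomes are fully paired along the synaptonemal complex, double-strand breaks are being repaired as crossovers or non-crossovers, and the X and Y chromosomes are silenced in the sex body. From mid pachytene onward spermatocytes switch on a large transcription programme, driven in mouse by A-MYB and other factors, that includes piRNA precursors and many genes whose proteins are used later, in the acrosome and the flagellum of the sperm. ZFP541 is a zinc finger protein of pachytene spermatocytes that binds histone deacetylases.

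Each genotype had 1 library, so no difference below has a replicate check and none was tested. Levels are unique molecular identifiers (UMIs) summed over the cells of a cluster in a library and given per 1000000 UMIs of that sum (CPM). Intervals in parentheses are 95% intervals for counting error. They leave out variation between mice and between preparations, and they take molecules as independent. A sum of 0 was read as allowing 3 counts, which is 0.228 CPM in knockout-labelled and 1.54 CPM in WT cluster 7. The libraries held 119675250 UMIs in 8833 knockout-labelled cells and 108612781 UMIs in 8420 WT cells. Both libraries held 17 of the annotated barcodes, 2 of them in cluster 7. The deposited clusters were made by the submitters from cells of these libraries, so the genes that set cluster 7 apart from other clusters are a description of the clustering and not a test. CPM are relative to all RNA of a cluster's cells.

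Cluster 7 held 603 of 2501 knockout-labelled mid pachytene cells, 24.1% (22.4 to 25.8%), and 212 of 1207 WT mid pachytene cells, 17.6% (15.5 to 19.8%). Both shares depend on the sort and on which cells were deep enough to be annotated, and they are not compared. Along the authors' pseudotime, a score without a unit, cluster 7 ran from -17964 to -14273 with a median of -16402 in the knockout-labelled library and from -17864 to -14446 with a median of -16281 in the WT library. Cluster 2 lay in the same stretch, with 89.6% of its knockout-labelled and 75.5% of its WT cells inside the range of cluster 7. Cluster 11 preceded cluster 7 and had 24 knockout-labelled and 6 WT cells inside that range, and cluster 4, the earliest, had 0 in either library. Clusters 7 and 2 thus share a stretch of pseudotime, and cluster 4 lies outside it.

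**Figure D1:**
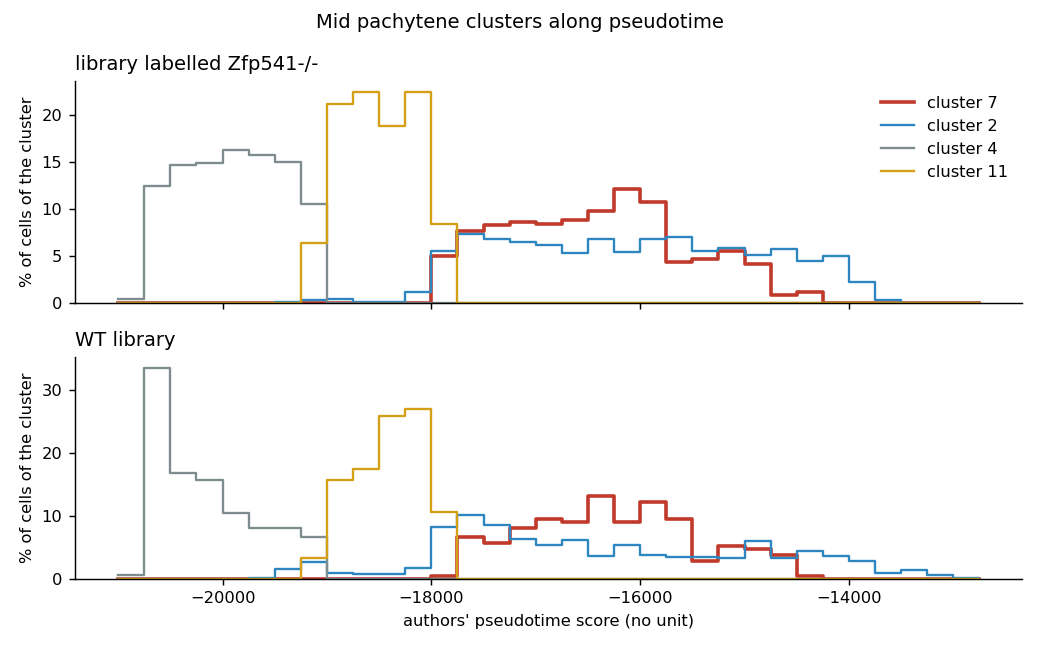
Percent of the cells of each mid pachytene cluster (vertical axis) along the authors' pseudotime score (horizontal axis, no unit), with the library labelled Zfp541-/- above and the WT library below. Clusters 7 and 2 share the stretch from about -18000 to -14000, while clusters 4 and 11 lie before it.

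Cluster 7 cells were the deepest of the mid pachytene cells in both libraries. The median cell had 21570 UMIs in knockout-labelled cluster 7, against 18449.5 in cluster 2, 15387 in cluster 4 and 18775 in cluster 11. In the WT library it had 8827 UMIs in cluster 7, against 7712 in cluster 2, 6005.5 in cluster 4 and 8188 in cluster 11. The median number of genes per cell was 4755 in knockout-labelled cluster 7, against 4257, 4283 and 4555 in clusters 2, 4 and 11, and 3081 in WT cluster 7, against 2641, 2455.5 and 2960.5. No cluster 7 cell had fewer than 6344 UMIs in the knockout-labelled or 6233 in the WT library. Of the other clusters' cells, 22, 14 and 7 of the knockout-labelled cells of clusters 2, 4 and 11 fell below that limit, and 88, 160 and 9 of the WT cells, which is 16.96%, 53.7% and 5.06% of those WT clusters. No doublet caller was run.

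The 6 genes given as markers of the cluster were Bend6, Rundc3b, Arhgap21, Phactr2, Nr3c1 and Fads1. Promoters of 4 of them are shown so that the start of each gene can be read beside its level. Each covers 300 bases around the start of the gene in RefSeq (GRCm38.p6), on the minus strand. The Bend6 and Rundc3b windows hold the first annotated base of the GENCODE spans given with the genes, while the Arhgap21 and Phactr2 windows lie inside those spans, at a RefSeq start downstream of it. In each window capitals mark matches to any of 4 motifs searched on both strands. The motifs were a MYB-type site (TAACNG), an E-box (CACGTG), the core of the cAMP response element (TGACG) and an X-box type site (GTTGCC), and they occur in 23.3%, 7.15%, 20.8% and 12.5% of all 32851 promoters of that length.
Bend6, chr1:33907718-33908017: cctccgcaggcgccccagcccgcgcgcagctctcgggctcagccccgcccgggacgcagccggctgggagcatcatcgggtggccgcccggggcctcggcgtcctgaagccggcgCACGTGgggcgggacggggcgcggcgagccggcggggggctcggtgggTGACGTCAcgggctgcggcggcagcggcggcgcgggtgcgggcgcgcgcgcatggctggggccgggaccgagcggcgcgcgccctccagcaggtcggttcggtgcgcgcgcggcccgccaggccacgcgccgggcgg
Rundc3b, chr5:8622903-8623202: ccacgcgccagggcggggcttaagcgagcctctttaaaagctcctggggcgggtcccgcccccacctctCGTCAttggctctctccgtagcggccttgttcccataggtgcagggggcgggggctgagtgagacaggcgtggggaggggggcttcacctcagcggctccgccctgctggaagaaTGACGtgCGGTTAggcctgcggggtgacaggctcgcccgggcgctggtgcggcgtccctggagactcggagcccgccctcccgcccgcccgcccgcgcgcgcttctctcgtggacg
Arhgap21, chr2:20967672-20967971: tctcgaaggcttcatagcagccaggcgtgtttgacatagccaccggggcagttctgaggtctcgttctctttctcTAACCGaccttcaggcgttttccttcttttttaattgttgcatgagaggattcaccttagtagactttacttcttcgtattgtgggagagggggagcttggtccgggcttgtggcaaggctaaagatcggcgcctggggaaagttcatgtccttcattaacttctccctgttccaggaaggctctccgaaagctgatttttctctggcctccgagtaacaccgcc
Phactr2, chr10:13324240-13324539: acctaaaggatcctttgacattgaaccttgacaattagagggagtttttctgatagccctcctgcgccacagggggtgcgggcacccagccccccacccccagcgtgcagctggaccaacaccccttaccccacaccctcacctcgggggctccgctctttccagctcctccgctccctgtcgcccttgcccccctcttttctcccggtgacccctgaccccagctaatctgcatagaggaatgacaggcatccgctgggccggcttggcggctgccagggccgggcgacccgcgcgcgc

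The Bend6 promoter, the more upstream of 2 entries, held an E-box at -135 and a cAMP response element core on each strand that overlap as TGACGTCA, and it was 83.7% G and C. The Rundc3b promoter held a MYB-type match at -59 and 2 matches to the cAMP response element core, at -181 and -66. The Arhgap21 promoter held a MYB-type match at -175 and was 50.7% G and C. The Phactr2 promoter held none of the 4 motifs. A match is a description of the letters and not a site.

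In the knockout-labelled library the 6 markers were moderately higher in cluster 7 than in the pooled other mid pachytene cells. In the WT library they were at or below 12.4 CPM in every mid pachytene cluster. Bend6, a BEN domain protein gene (chr1:33852052-33907816), had 166 CPM in knockout-labelled cluster 7, against 118, 100.04 and 143 CPM in clusters 2, 4 and 11. In WT it had 1 UMI in cluster 7 and 0, 0 and 1 UMIs in clusters 2, 4 and 11. Rundc3b, a RUN domain protein gene (chr5:8490334-8622952), had 127 CPM in knockout-labelled cluster 7, against 77.0, 126 and 132 CPM in clusters 2, 4 and 11. It was the marker whose highest mid pachytene cluster was 11 and not 7. In WT it had 6.15 CPM in cluster 7, against 2.92, 7.85 and 12.4 CPM.

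Arhgap21 (chr2:20847919-20968881), which encodes a GTPase activating protein of the Golgi, had 68.7 CPM in knockout-labelled cluster 7, against 39.5, 53.6 and 65.4 CPM in clusters 2, 4 and 11. It had 0 UMIs in WT cluster 7. Phactr2 (chr10:13207717-13474412), a regulator of protein phosphatase 1 and actin, had 129 CPM in knockout-labelled cluster 7, against 80.8, 72.6 and 97.6 CPM. In WT it had 2.05 CPM in cluster 7, against 0.243, 0.981 and 1.24 CPM. Both genes shared the order of cluster 7 first and cluster 11 next.

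Nr3c1 (chr18:39410545-39519421), the glucocorticoid receptor gene, had 72.4 CPM in knockout-labelled cluster 7, against 46.0, 51.1 and 63.3 CPM in clusters 2, 4 and 11. In WT it had 9.22 CPM in cluster 7, from 18 UMIs, against 3.40, 2.45 and 6.19 CPM. It was the only marker whose WT log2 ratio of cluster 7 to the pooled other mid pachytene cells, 1.32 (0.37 to 2.20), had an interval above 0. Fads1 (chr19:10182888-10196877), a fatty acid desaturase gene, had 93.0 CPM in knockout-labelled cluster 7, against 70.2, 59.8 and 72.2 CPM, and 0 UMIs in WT cluster 7.

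The knockout-labelled log2 ratios of cluster 7 to the pooled other mid pachytene cells lay between 0.31 (Rundc3b) and 0.65 (Phactr2), and all 6 intervals were above 0. None reached 2-fold. Of the 6, 5 were higher in cluster 7 than in each of clusters 2, 4 and 11, as were 1378 of 7642 measured genes (18%) by any amount. Cluster 7 ranked 2 of 15 ranked knockout-labelled clusters for each of the 6 genes, and 4 of the 6 were highest in late pachytene cluster 5. The shares of knockout-labelled cluster 7 cells with at least 1 UMI were 94.7% for Bend6, 89.6% for Rundc3b, 74.3% for Arhgap21, 93.0% for Phactr2, 76.1% for Nr3c1 and 84.7% for Fads1. After each cell was thinned to 4000 UMIs they were 51.6%, 36.8%, 26.04%, 41.0%, 24.2% and 32.2%. In the earliest knockout-labelled spermatogonia, with a median of 9280.5 UMIs against 21570 in cluster 7, the same shares ran from 7.34% for Bend6 to 28.0% for Rundc3b, and after thinning from 3.85% for Bend6 to 10.6% for Arhgap21 and Nr3c1. All 6 thinned shares in cluster 7 were above those in spermatogonia. Among the mid pachytene clusters the thinned share was highest in cluster 7 for Bend6, Arhgap21, Phactr2, Nr3c1 and Fads1. For Rundc3b it was higher in clusters 4 and 11, at 39.5% and 39.3%. For Nr3c1 the interval in cluster 7 (20.8 to 27.8%) overlapped that in cluster 11 (17.9 to 25.8%).

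**Figure D2:**
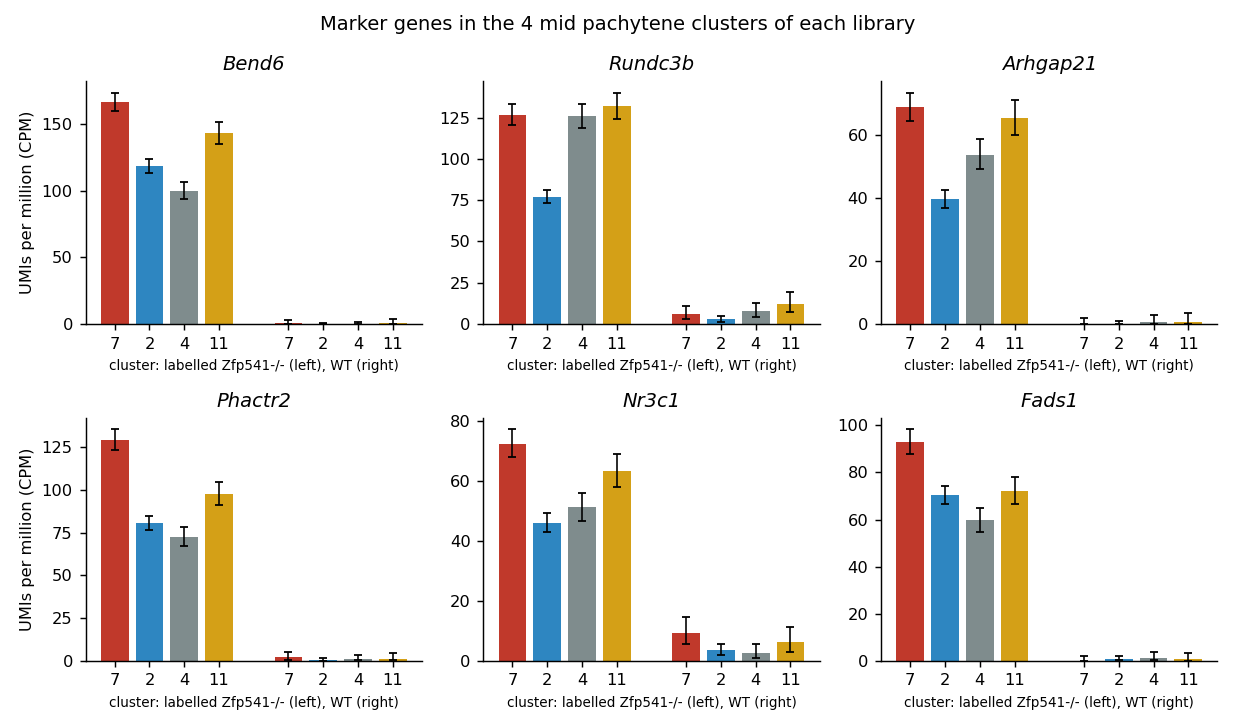
Level of the 6 marker genes in CPM (vertical axis, own scale per gene) in clusters 7, 2, 4 and 11 of the library labelled Zfp541-/- (left bars) and the WT library (right bars). Bars are summed levels and lines are 95% Poisson intervals for counting error. Every knockout-labelled bar of cluster 7 lies between 68.7 and 166 CPM, and every WT bar of cluster 7 at or below 9.22 CPM.

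The stage name itself could be checked only in part. Summed over 15 pachytene markers, cluster 7 had 13947 CPM in the knockout-labelled library, against 13699, 11355 and 12950.3 CPM in clusters 2, 4 and 11. In the WT library it had 15703 CPM, against 15116, 11558 and 14154 CPM. Ldhc alone gave 7220 CPM of the knockout-labelled and 7970 CPM of the WT sum in cluster 7. Single members differed in order. In the knockout-labelled library Ybx3 was highest in cluster 7, at 2352 CPM. There Ldhc was highest in cluster 2, at 7764 CPM, and Piwil1 in cluster 4, at 1033 CPM against 959 CPM in cluster 7. None of those 15 genes, and none of the 6 markers of the cluster, was among the top 10 genes of cluster 7 by fold over all other cells of its library. In the knockout-labelled library those 10 genes included Cfap44 and Hydin of the axoneme and Adgrb3, and in the WT library Dclre1a, Ino80d, Dock3 and Phip. Cluster 7 is therefore called by its number and its deposited stage name.

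Markers of somatic cells were few in cluster 7, while some markers of other germ cell stages were present. Of 14 spermatogonial markers 12 were detected in knockout-labelled cluster 7 and 7 in WT cluster 7, but only 2 had at least 10 CPM in each. The 14 summed to 239 CPM in knockout-labelled cluster 7, against 339, 119.8 and 162 CPM in clusters 2, 4 and 11. In WT they summed to 313 CPM in cluster 7, against 350.1, 162 and 201 CPM. Leptotene and zygotene markers summed to 1479 CPM in knockout-labelled and 1766 CPM in WT cluster 7, and diplotene and metaphase I markers to 1471 CPM in knockout-labelled and 1721 CPM in WT cluster 7. Red cell markers had 0 UMIs in either library, and 1 of 10 macrophage and 1 of 8 Leydig cell markers were detected in each library. Peritubular myoid and endothelial markers summed to 1.37 CPM in knockout-labelled and 5.64 CPM in WT cluster 7. Sertoli cell markers summed to 21.7 CPM in knockout-labelled cluster 7, of which Ctsl made up 17.5 CPM, and to 11.8 CPM in WT cluster 7. Spermatid markers differed between the libraries: 14 round spermatid markers summed to 1.29 CPM in knockout-labelled and 40.5 CPM in WT cluster 7, and 10 elongating spermatid markers to 1.44 CPM in knockout-labelled and 323 CPM in WT cluster 7.

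The targeted gene did not check the label. Zfp541 (chr7:16061814-16096334) had 85.5 CPM (80.6 to 90.7) in knockout-labelled cluster 7, against 40.5 CPM (32.1 to 50.5) in WT cluster 7. It was also the higher one in the knockout-labelled library in clusters 2, 4 and 11, at 72.8, 92.6 and 84.3 CPM against 23.6, 22.1 and 32.2 CPM in WT. At least 1 Zfp541 UMI was present in 81.1% of knockout-labelled and 30.2% of WT cluster 7 cells, and in 29.7% and 13.2% after thinning to 4000 UMIs. In knockout-labelled spermatogonia the unthinned share was 7.80%. A 3' tag outside the deleted part checks nothing, so all directions between libraries are given for the libraries as labelled.

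Against the pooled other mid pachytene cells of the same library, cluster 7 differed little in fold. Genes were measured where the higher side had at least 10 CPM, and a gene was called where the 2 levels differed by at least 2-fold. In the knockout-labelled library 2 of 7247 genes (0.0276%) were called higher and 23 (0.317%) lower in cluster 7, and in the WT library 95 of 7110 (1.34%) were called higher and 76 (1.07%) lower. The median log2 ratio over all measured genes was 0.04 in the knockout-labelled and 0.10 in the WT library. With levels scaled by the median of ratios, the WT split was 49 higher and 107 lower. With cells thinned to 4000 UMIs, the counts were 13 higher and 50 lower in the knockout-labelled library and 239 higher and 160 lower in WT. With the other cells limited to the 5th to 95th percentile of the pseudotime of cluster 7, only cells of cluster 2 were left. Against these 620 knockout-labelled and 291 WT cells, 21 genes were higher and 13 lower in the knockout-labelled library. In the WT library 237 were higher and 23 lower. Taken against each of the 3 clusters singly, cluster 7 was at least 2-fold higher for 0 (0%) and lower for 3 (0.0393%) of 7642 genes in the knockout-labelled library, and higher for 9 (0.12%) and lower for 23 (0.306%) of 7511 in WT. By any amount it was lower than each for 1396 genes (18.3%) in the knockout-labelled library, and in WT higher for 2227 (29.6%) and lower for 1603 (21.3%).

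The ratios had the same sign in both libraries for 77.0% of the 6420 genes measured in both, and across these genes Pearson's r was 0.63 and Spearman's correlation 0.66. Genes are not independent replicates, and the libraries share cluster numbers, so these values describe the clusters. All 17 genes called lower in knockout-labelled cluster 7 and measured in both were also below 0 in WT. Of the genes measured in both, 55 were called higher in WT cluster 7 and 51 of these were above 0 in the knockout-labelled library, and 61 were called lower and 51 of these were below 0.

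**Figure D3:**
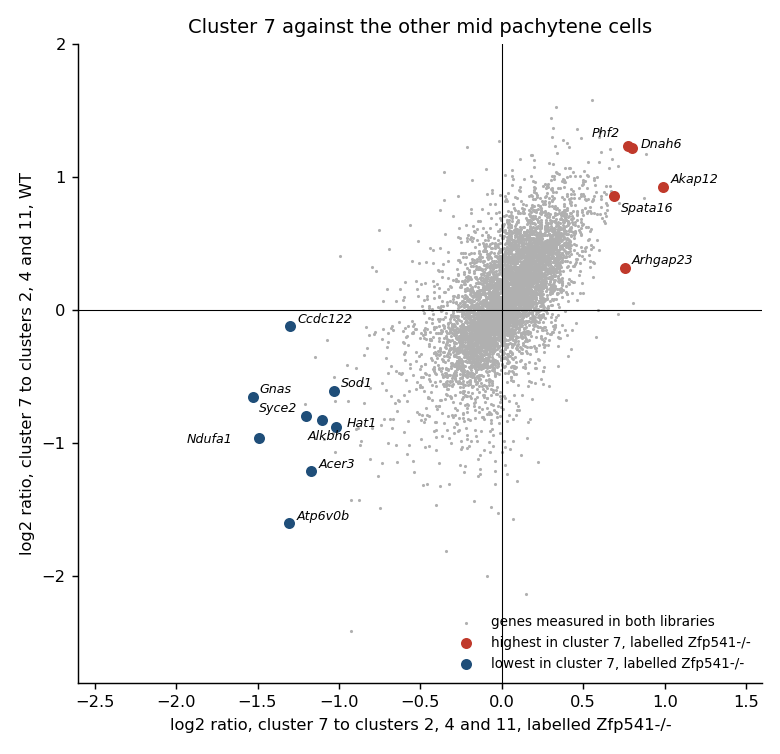
Log2 ratio of cluster 7 to the pooled other mid pachytene cells for each gene measured in both libraries, in the library labelled Zfp541-/- (horizontal axis) and in the WT library (vertical axis). Red and blue points are the highest and lowest genes named in the text that were measured in both, and 77.0% of all points have the same sign on both axes.

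Most of the genes highest in cluster 7 among mid pachytene clusters were higher still in late pachytene. Their median genomic span was 89980.5 bp, against 23.9 kb over all genes measured against the pooled knockout-labelled cells. The group is the 14 genes with the highest smallest ratio to clusters 2, 4 and 11 in the knockout-labelled library. Their knockout-labelled ratios are therefore a description of that choice. Akap12, which encodes a scaffold for protein kinase A, had 62.2 CPM in knockout-labelled cluster 7, against 33.3, 21.8 and 37.2 CPM in clusters 2, 4 and 11. In WT it had 55.3 CPM in cluster 7, against 30.1, 21.1 and 37.1 CPM, and its log2 ratio to the pooled cells was 0.99 (0.86 to 1.12) in the knockout-labelled and 0.92 (0.58 to 1.26) in the WT library. Akap12 had similar levels in both libraries in all 4 clusters.

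Spata16, a gene of the developing acrosome, had 234 CPM in knockout-labelled cluster 7, against 157, 108 and 161 CPM in clusters 2, 4 and 11, and 266 CPM in WT cluster 7, against 139, 119 and 204 CPM. Dnah6, which encodes an axonemal dynein heavy chain, had 29.9 CPM in knockout-labelled cluster 7, against 16.99, 15.2 and 19.8 CPM, and 53.3 CPM in WT cluster 7, against 18.7, 22.1 and 34.6 CPM. Both were highest in cluster 7 among the mid pachytene clusters of each library, and both reached their knockout-labelled peak in late pachytene cluster 5, at 307 and 37.9 CPM. Phf2, a gene for a histone demethylase, had 25.4 CPM in knockout-labelled cluster 7, against 16.7, 8.99 and 17.3 CPM, and 115 CPM in WT cluster 7, against 52.8, 27.5 and 66.2 CPM.

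The same group held Arhgap23, the transporter gene Abcc4, the RNA-binding protein gene Mex3b, the transcription factor gene Sox11, the adhesion gene Ncam1, the actin nucleator gene Cobl, and Gm14152, Gm28874 and Gm26870. Late pachytene cluster 5 was the highest knockout-labelled cluster for 10 of the 14. Only 6 of the 14 had enough counts in the WT library to be measured, and 4 of those, Akap12, Spata16, Dnah6 and Phf2, had an interval above 0. Abcc4 and Mex3b had 0 WT UMIs in all 4 clusters, against 16.1 and 17.8 CPM in knockout-labelled cluster 7. Their fitted WT ratios of 1.99 therefore come from the added 0.5 counts alone.

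The genes lowest in cluster 7 had their highest knockout-labelled levels at earlier stages. For 4 of them this was preleptotene, for 2 each leptotene and early pachytene, and for 1 each zygotene and spermatogonia. Their median span was 11387 bp, against the same 23.9 kb over all measured genes. This group is the 10 genes with the lowest largest ratio to clusters 2, 4 and 11 in the knockout-labelled library, again a description there. Syce2, which encodes a central element protein of the synaptonemal complex, had 23.4 CPM in knockout-labelled cluster 7, against 46.9, 79.0 and 42.1 CPM in clusters 2, 4 and 11. In WT it had 91.7 CPM in cluster 7, against 149, 210.0 and 121 CPM. Atp6v0b, a subunit gene of the vacuolar proton pump, had 37.3 CPM in knockout-labelled cluster 7, against 62.8, 165 and 77.5 CPM, and 42.5 CPM in WT cluster 7, against 84.4, 266 and 74.2 CPM. Both genes were lowest in cluster 7 and highest in cluster 4 in each library.

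Prss50, a testis protease-like gene, had 5.63 CPM in knockout-labelled cluster 7, against 24.4, 32.6 and 11.5 CPM in clusters 2, 4 and 11, a log2 ratio to the pooled cells of -2.05 (-2.43 to -1.72). In WT cluster 7 it had 3 UMIs. Ndufa1, an X-linked gene for a subunit of respiratory complex I, had 17.8 CPM in knockout-labelled cluster 7, against 44.8, 80.5 and 28.5 CPM, and 38.4 CPM in WT cluster 7, against 49.8, 136 and 61.9 CPM. The others were Gnas, Acer3, Ccdc122, Alkbh6, the superoxide dismutase gene Sod1 and the histone acetyltransferase gene Hat1. All 10 were highest in cluster 4 among the knockout-labelled mid pachytene clusters, and 9 of 10 in WT. In WT 9 were measured, and 8 of these had an interval below 0.

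Of the mid pachytene clusters, cluster 4 had the most genes called against cluster 7, and most recombination genes were lower in cluster 7 than in cluster 4. In the knockout-labelled library 161 of 7569 genes (2.13%) were called higher and 246 (3.25%) lower in cluster 7 than in cluster 4, or 214 and 180 with levels scaled by the median of ratios, which moves every log2 ratio up by 0.12. In the WT library 502 of 7342 (6.84%) were called higher and 413 (5.63%) lower. Of the genes for double-strand break formation and strand invasion, 17 of 22 were lower in cluster 7 in the knockout-labelled library, with a median log2 ratio of -0.48, and 12 of 16 in WT, with a median of -0.66. Of all measured genes 37.8% were higher than in cluster 4 in the knockout-labelled and 51.2% in the WT library, and their medians were -0.12 and 0.02. Against cluster 2 the break formation list had a median of 0.19 in both libraries, beside 0.15 and 0.17 over all genes. There 12 of 20 knockout-labelled and 12 of 15 WT members were below the median of genes of like genomic span. Against cluster 4, synaptonemal complex and meiotic cohesin genes were lower for 12 of 14 (median -0.41) in the knockout-labelled and 11 of 14 (median -0.91) in the WT library. Against cluster 2, 11 of 14 and 11 of 13 of them were below the median of genes of like span.

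Hormad2, of the unsynapsed axis, had 9.05 CPM in knockout-labelled cluster 7, against 11.1, 35.0 and 16.3 CPM in clusters 2, 4 and 11, and 10.2 CPM in WT cluster 7, against 16.3, 32.4 and 22.9 CPM. Rnf212b, a crossover factor gene, had 10.6 CPM in knockout-labelled cluster 7, against 11.6, 37.1 and 20.3 CPM, and 2.05 CPM in WT cluster 7, against 6.08, 29.9 and 5.57 CPM. Sycp1, the transverse filament gene of the synaptonemal complex, had 353 CPM in knockout-labelled cluster 7, against 363, 719.8 and 432 CPM, and 374 CPM in WT cluster 7, against 311, 874 and 575 CPM. In both libraries cluster 11 lay between cluster 4 and cluster 7 for Sycp1 and Hormad2. Crossover maturation as a list was lower for 12 of 14 genes (median -0.27) in the knockout-labelled library and for 8 of 13 (median -0.29) in WT, and Blm, a helicase gene, was on the other side with 105 CPM in knockout-labelled cluster 7 against 95.7 CPM in cluster 4.

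Most flagellum and acrosome genes were higher in cluster 7 than in cluster 4. Flagellum and axoneme genes were higher for 18 of 19 in the knockout-labelled library (median 0.40) and for 20 of 21 in WT (median 0.70), and acrosome genes for 9 of 10 in each (medians 0.62 and 0.74). Dnah8, an axonemal dynein gene, had 798 CPM in knockout-labelled cluster 7, against 402, 539 and 629 CPM in clusters 2, 4 and 11, and 888 CPM in WT cluster 7, against 404, 483 and 719 CPM. Cfap44, of the sperm axoneme, had 31.0 CPM in knockout-labelled cluster 7, against 17.3, 17.9 and 23.6 CPM, and 51.2 CPM in WT cluster 7, against 28.0, 23.1 and 41.4 CPM. Both were highest in cluster 7 among the mid pachytene clusters of each library. Tex101 was the 1 acrosome list gene that was lower, with 517 CPM in knockout-labelled cluster 7 against 1522 CPM in cluster 4.

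Against cluster 2 the acrosome median was -0.07 in the knockout-labelled and 0.09 in the WT library, and flagellum genes were higher for 13 of 20 (median 0.29) and 13 of 21 (median 0.34), of which 9 of 20 and 8 of 21 were above the median of all genes of their span group. Flagellum genes were higher in cluster 7 against cluster 11, for 17 of 19 (median 0.20) in the knockout-labelled and 20 of 21 (median 0.30) in the WT library. Of all measured genes 42.9% and 49.5% were higher in cluster 7 than in cluster 11. Cluster 11 was otherwise the closest to cluster 7 of the knockout-labelled mid pachytene clusters, with 22 of 7311 genes (0.301%) called higher and 5 (0.0684%) lower in cluster 7, and in WT with 88 of 7211 (1.22%) higher and 68 (0.943%) lower. Over genes, Spearman's correlation of levels with cluster 7 was 0.994 for cluster 11, 0.993 for late pachytene cluster 5, 0.990 for cluster 2, 0.982 for late pachytene cluster 0 and 0.981 for cluster 4 in the knockout-labelled library, and 0.983, 0.983, 0.981, 0.984 and 0.962 in WT, where cluster 0 was the highest. These correlations describe summed levels and move with the number of UMIs in a cluster.

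Cluster 2 shares the pseudotime of cluster 7, and the ratio to it was ordered by gene length. In the knockout-labelled library 32 of 7183 genes (0.445%) were called higher and 12 (0.167%) lower in cluster 7 than in cluster 2, and in the WT library 323 of 7057 (4.58%) higher and 26 (0.368%) lower. With cells thinned to 4000 UMIs, the counts were 122 and 23 in the knockout-labelled and 586 and 107 in the WT library. Scaled by the median of ratios, which moves the ratios by -0.15 in the knockout-labelled and -0.17 in the WT library, the splits were 14 and 20, and 128 and 60. The measured genes were put into 4 equal groups by genomic span, the distance from the first to the last annotated base. In the knockout-labelled library the median log2 ratio of cluster 7 to cluster 2 was -0.15 in the shortest group (median span 5.02 kb), 0.06 and 0.27 in the next groups and 0.45 in the longest (91.1 kb). In the WT library it was -0.14 (4.65 kb), 0.06, 0.29 and 0.54 (87.3 kb).

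The gradient in length was of like size under the alternatives that bear on depth and pseudotime, which were chosen after seeing the data. With cells thinned to 4000 UMIs, the shortest and longest groups had medians of -0.14 and 0.43 in the knockout-labelled and -0.14 and 0.56 in the WT library. With cluster 2 limited to the 5th to 95th percentile of the pseudotime of cluster 7, and to cells no shallower than its shallowest cell, they were -0.14 and 0.42, and -0.12 and 0.45. Against cluster 11 the medians of the 4 groups lay between -0.04 and -0.02 in the knockout-labelled library and between -0.02 and 0.03 in WT. With the median of ratios the shortest and longest groups had -0.30 and 0.30 in the knockout-labelled and -0.32 and 0.37 in the WT library.

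**Figure D4:**
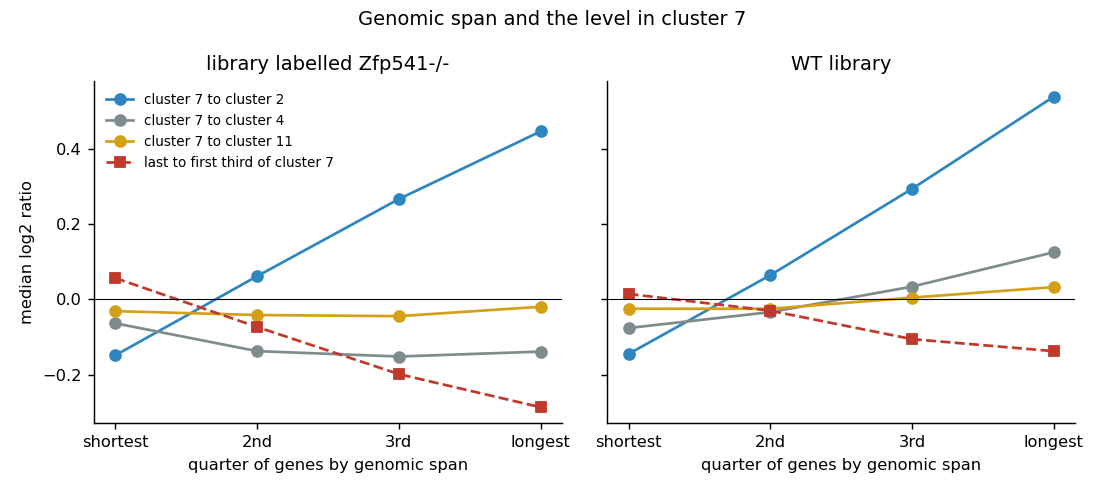
Median log2 ratio (vertical axis) of genes in 4 equal groups from the shortest to the longest genomic span (horizontal axis), in the library labelled Zfp541-/- (left) and the WT library (right). Solid lines compare cluster 7 with cluster 2, 4 or 11, and the dashed line compares the latest with the earliest cells of cluster 7 by pseudotime. The ratio to cluster 2 climbs to 0.45 and 0.54 in the longest group, and the dashed line descends to -0.29 and -0.14.

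Of all measured genes 62.6% in the knockout-labelled and 62.2% in the WT library were higher in cluster 7 than in cluster 2, with medians of 0.15 and 0.17. Genes of histone methylation and deacetylation were higher in cluster 7 than in cluster 2 for 24 of 24 in the knockout-labelled library (median 0.44) and 18 of 21 in WT (median 0.46), and 18 of 24 and 14 of 21 were above the median of all genes of their span group. Ezh1, a histone H3 methyltransferase gene, had 99.7 CPM in knockout-labelled cluster 7, against 64.6 CPM in cluster 2, and 12.3 CPM in WT cluster 7, against 6.56 CPM. Ezh2, its paralogue, had 331 CPM in knockout-labelled cluster 7, against 244 CPM in cluster 2, and 168 CPM in WT cluster 7, against 114 CPM. Hdac3 had 7.37 CPM in knockout-labelled cluster 7, against 22.9 CPM in cluster 4, the strongest departure of this list from the pooled cells.

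piRNA pathway genes were higher than in cluster 2 for 17 of 19 in the knockout-labelled library (median 0.46) and 16 of 18 in WT (median 0.42), of which 13 of 19 and 9 of 18 were above the median of their span group. Tdrd6, a tudor domain gene of the germ granule, had 124 CPM in knockout-labelled cluster 7, against 72.3, 87.3 and 104 CPM in clusters 2, 4 and 11, and 217 CPM in WT cluster 7, against 113, 84.4 and 149.7 CPM. The glucocorticoid receptor, its chaperones and common targets were higher for 11 of 12 and 6 of 8 genes, with medians of 0.29 and 0.28, and 11 of 12 and 4 of 8 were above the median of their span group. Among them the coactivator gene Ncoa2 had 67.9 CPM in knockout-labelled cluster 7, against 37.4 CPM in cluster 2, and 12.3 CPM in WT cluster 7, against 8.75 CPM.

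Transcription regulators of pachytene and spermatids were higher than in cluster 2 for 14 of 18 genes in the knockout-labelled library (median 0.23) and 18 of 20 in WT (median 0.41), of which 10 of 18 and 14 of 20 were above the median of their span group. Against cluster 4 the libraries differed for this list, with 7 of 18 higher in the knockout-labelled library (median -0.19) and 17 of 20 in WT (median 0.53), a difference that was not tested. Rfx4 had 41.5 CPM in knockout-labelled cluster 7, against 29.3 and 42.0 CPM in clusters 2 and 4, and 45.1 CPM in WT cluster 7, against 25.8 and 27.5 CPM. The testis linker histone gene Hist1h1t had 42.6 CPM in knockout-labelled cluster 7, against 15.2 CPM in cluster 2, and 204 CPM in WT cluster 7, against 63.5 CPM. Mdc1, which spreads the DNA damage signal over the sex body, had 219 CPM in knockout-labelled cluster 7, against 115 CPM, and 155 CPM in WT cluster 7, against 95.5 CPM.

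Ribosomal and mitochondrial protein genes were lower in cluster 7 by small amounts. Cytosolic ribosomal protein genes were lower than in the pooled cells for 68 of 79 in the knockout-labelled library (median -0.12) and 74 of 78 in WT (median -0.19), and they made up 11.1% of knockout-labelled cluster 7 UMIs, against 12.4%, 11.96% and 11.5% in clusters 2, 4 and 11, and 9.40% of WT cluster 7 UMIs, against 10.7%, 10.9% and 10.03%. Of all measured genes 3137 of 7247 in the knockout-labelled and 2846 of 7110 in the WT library were lower than in the pooled cells. In the shortest span group the median log2 ratio to the pooled cells was -0.08 in the knockout-labelled and -0.09 in the WT library. A list of nuclear genes for respiratory chain subunits and a list of mitochondrial ribosomal protein genes were added after seeing values. The respiratory subunits were lower for 73 of 76 in the knockout-labelled library (median -0.16) and 74 of 76 in WT (median -0.25), and the mitochondrial ribosomal proteins for 65 of 77 (median -0.14) and 70 of 77 (median -0.25). Against cluster 2, 66 of 76 respiratory subunits were below the median of their span group in each library, while ribosomal proteins were below it for 44 of 79 in the knockout-labelled and 60 of 78 in the WT library.

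Atp5g2, for a subunit of ATP synthase, had 148 CPM in knockout-labelled cluster 7, against 206, 431 and 247 CPM in clusters 2, 4 and 11, and 53.8 CPM in WT cluster 7, against 82.4, 302 and 106 CPM. UMIs of the mitochondrial genome made up 2.81% in knockout-labelled cluster 7, against 2.99%, 3.54% and 3.22%, and 1.34% in WT cluster 7, against 1.41%, 1.63% and 1.46%. Cluster 7 thus had the lowest mitochondrial share of the 4 clusters in both libraries. Among the mitochondrial genes mt-Nd4l went the other way against cluster 2, with 695 CPM in knockout-labelled cluster 7 against 359 CPM, and 479 CPM in WT cluster 7 against 298 CPM.

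**Figure D5:**
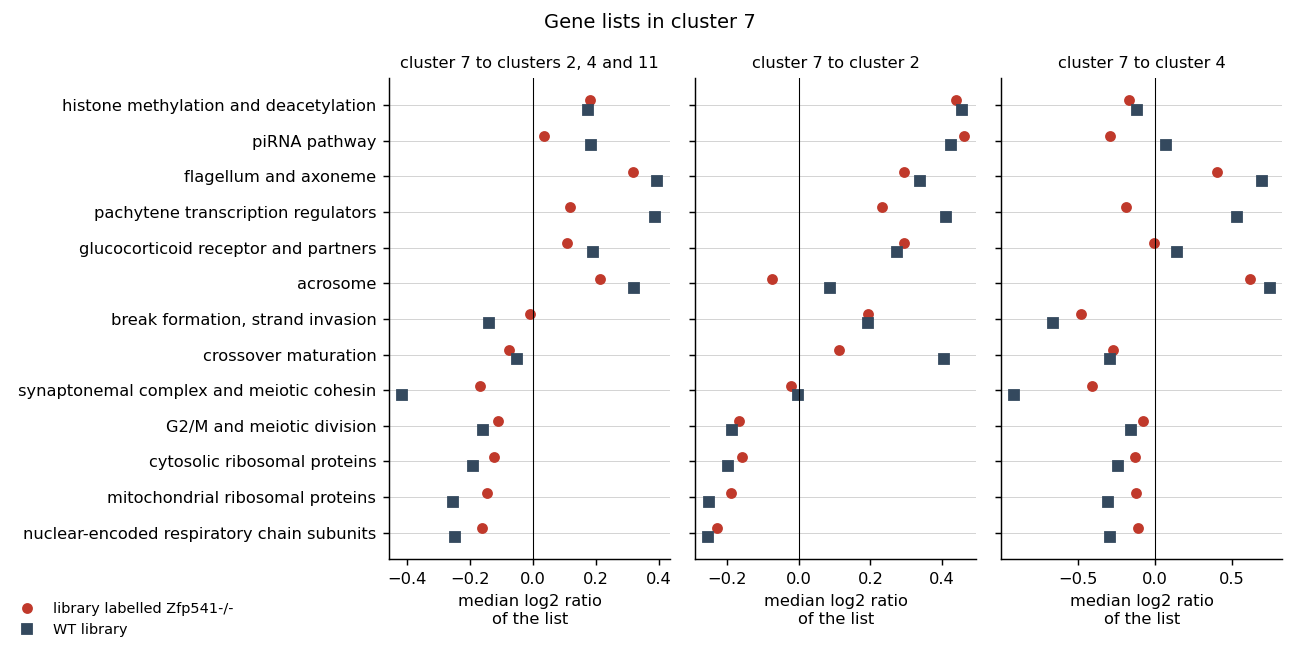
Median log2 ratio of the measured members of 13 gene lists (horizontal axes, own scale per panel) for cluster 7 to the pooled clusters 2, 4 and 11, to cluster 2 and to cluster 4, in the library labelled Zfp541-/- (circles) and the WT library (squares). Histone modifiers and piRNA genes are above 0 against cluster 2, recombination and synaptonemal complex genes are below 0 against cluster 4, and the ribosomal and respiratory lists are below 0 against the pooled cells and cluster 2. Against cluster 4 their knockout-labelled medians of -0.13 and -0.11 lie beside a median of -0.12 over all genes, so that with the median of ratios the respiratory one would be above 0.

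UMIs from the silenced sex chromosomes were rare in cluster 7. X-linked genes gave 0.0185% of knockout-labelled cluster 7 UMIs (0.0177 to 0.0192%), against 0.0493%, 0.0472% and 0.0206% in clusters 2, 4 and 11, and 0.0132% of WT cluster 7 UMIs (0.0116 to 0.0149%), against 0.0172%, 0.0256% and 0.0174%. Taken as the median over cells, the knockout-labelled share was 0.0102% in cluster 7, against 0.0168%, 0.0125% and 0.00807%, so cluster 11 and not cluster 7 was then the lowest. Ndufa1 alone gave 9.63% of the X-linked UMIs of knockout-labelled and 29.2% of those of WT cluster 7. Y-linked genes gave 0.00102% of knockout-labelled cluster 7 UMIs, against 0.00246%, 0.00220% and 0.00109%, and 9 UMIs in all of WT cluster 7.

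Within cluster 7, more genes were called between the libraries than between cluster 7 and any other mid pachytene cluster of the same library. Of 7795 measured genes, 1184 (15.2%) were called higher and 994 (12.8%) lower in knockout-labelled than in WT cluster 7. The cluster's own markers were among the largest differences, with log2 ratios of 7.76 (5.86 to 13.65) for Bend6, 5.81 (4.62 to 7.86) for Phactr2, 4.31 (3.56 to 5.32) for Rundc3b and 2.93 (2.30 to 3.73) for Nr3c1. Against the floor of 3 counts in WT cluster 7, Fads1 was at least 60.5-fold and Arhgap21 at least 44.7-fold higher in knockout-labelled cluster 7. The markers were at or below 12.4 CPM in the other WT mid pachytene clusters too.

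Other genes with high ratios were chosen by rank. Igfbp7, for an insulin-like growth factor binding protein, had 205 CPM in knockout-labelled and 0 UMIs in WT cluster 7, at least 134-fold higher. Dhrs3, a retinal reductase gene, was at least 94.3-fold, Iqgap2 at least 65.4-fold and 3010003L21Rik at least 59.2-fold higher. Acot13, an acyl-CoA thioesterase gene, had 253 CPM in knockout-labelled cluster 7 and 1 UMI in WT cluster 7. In the other direction Prm1 and Prm2, the protamine genes, had 0 UMIs in knockout-labelled cluster 7, against 123 and 99.9 CPM in WT cluster 7, at least 539-fold and 438-fold lower. Tnp2 and Tnp1, the transition protein genes, were at least 216-fold and 121-fold lower, Gm15517 at least 222-fold and AC133868.2 at least 110.1-fold. The protamine and transition protein UMIs were spread over the WT mid pachytene clusters, with Prm1 at 123, 89.95, 124 and 118 CPM in clusters 7, 2, 4 and 11 and at 148398 CPM in WT elongated spermatids, and the part of free RNA from spermatids in them was not tested.

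As groups, flagellum genes were lower in knockout-labelled than in WT cluster 7 for 17 of 21 (median -0.57), acrosome genes for 8 of 10 (median -0.43), pachytene markers for 10 of 13 (median -0.41) and testis energy metabolism genes for 13 of 15 (median -0.47). Spermatid markers were lower beside them, at 1.44 CPM in knockout-labelled and 323 CPM in WT cluster 7 for elongating and at 1.29 and 40.5 CPM for round spermatids, and their part in the list values was not tested. Prps1l1, a testis gene for phosphoribosyl pyrophosphate synthesis, had 6.46 CPM in knockout-labelled cluster 7, against 550.4 CPM in WT cluster 7. Break formation and strand invasion genes were higher in the knockout-labelled cluster for 14 of 19 (median 0.70), histone methylation and deacetylation genes for 21 of 26 (median 0.41) and mitochondrially encoded genes for 11 of 12 (median 1.25). Of all measured genes 53.8% were higher in the knockout-labelled cluster, and the median over all genes was 0.07. The ratio between the libraries was also ordered by gene length. Its medians were -0.20, 0.00, 0.19 and 0.27 from the shortest to the longest of the 4 span groups, and the part of length in the list values was not tested. The median knockout-labelled cell of the cluster had 21570 UMIs, against 8827 in WT, and with all cells thinned to 4000 UMIs the counts were 1281 higher and 1091 lower.

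Within cluster 7, 4 of the 5 genes highest in the latest against the earliest knockout-labelled cells peaked in late pachytene. The 201 latest knockout-labelled cells were compared with the 201 earliest, and 20 of 7301 genes (0.274%) were called higher and 55 (0.753%) lower in the latest. In WT, with 70 latest and 71 earliest cells, 201 of 7347 (2.74%) were called higher and 388 (5.28%) lower. These WT cells held 636687 and 670739 UMIs, against 4188017 and 4356710 in the knockout-labelled library. In the WT sums 3 counts were 4.71 and 4.47 CPM, so the called counts of the 2 libraries are not compared. Ovol2, a transcription factor gene of pachytene, had 1.84, 5.86 and 11.9 CPM in the earliest, middle and latest knockout-labelled cells, a log2 ratio of 2.63 (1.61 to 3.99), and 37.3, 65.2 and 70.7 CPM in WT, a log2 ratio of 0.91 (0.19 to 1.69). Its highest knockout-labelled cluster was late pachytene cluster 0, at 50.4 CPM.

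Nkpd1 had 4.36, 8.24 and 15.5 CPM, Smtnl2 6.20, 12.6 and 21.5 CPM and Amn 9.87, 21.9 and 33.0 CPM in the earliest, middle and latest knockout-labelled cells. These 3 genes, like Ovol2, were highest in late pachytene. Ptcra had 21.8, 8.68 and 3.34 CPM in the earliest, middle and latest knockout-labelled cells, a log2 ratio of -2.66 (-3.63 to -1.89), and Rnf169, a chromatin reader gene of the DNA damage response, had 20.4, 14.8 and 7.64 CPM. Galnt11, Arhgap32 and Zfp146 had log2 ratios between -1.50 and -1.41, and Gm16222, at 3.46, was the highest of all. Ovol2 was the 1 gene of these 10 whose WT interval excluded 0.

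The ratio along pseudotime was also ordered by gene length. From the shortest to the longest of the 4 span groups the median log2 ratio of the latest to the earliest cells was 0.06, -0.07, -0.20 and -0.29 in the knockout-labelled library and 0.01, -0.03, -0.11 and -0.14 in WT. Histone methylation and deacetylation genes were lower in the latest cells for 23 of 24 in the knockout-labelled (median -0.32) and 18 of 23 in the WT library (median -0.24), and piRNA pathway genes for 16 of 19 (median -0.35) and 16 of 18 (median -0.28). Of all measured genes 4666 of 7301 in the knockout-labelled and 4132 of 7347 in the WT library were lower, with medians of -0.12 and -0.06. In the third and the longest span group 25.5% and 18.9% of knockout-labelled genes were higher, and 38.9% and 37.3% in WT. The 2 lists were not set against their span groups along pseudotime. Median UMIs per cell were 21849, 22718 and 20894 in the earliest, middle and latest knockout-labelled cells and 8891, 8855 and 8739.5 in WT, and with knockout-labelled cells thinned to 4000 UMIs 125 genes were higher and 380 lower.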

How the data were processed

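Droplet single-cell RNA sequencing was run on 1 library per genotype. Reads were processed with Cell Ranger 3.1.0 and Seurat 3.2.0 on mm10, per the submitters' processing notes. The authors deposited UMI counts per gene and cell, not normalized, and a cell table with library, cluster and stage. Percent mitochondrial and percent ribosomal UMIs per cell are as deposited in that table. The pseudotime score, whose making the labels do not describe, is also the authors' deposited value.

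From these, UMIs of annotated cells were summed per gene, cluster and library with Python 3.11.15, numpy 2.4.6, pandas 2.3.3, scipy 1.17.1 and matplotlib 3.10.9. Of 31053 genes, 31011 had a GRCm38 position in GENCODE M21, which gave the spans. Log2 ratios had 0.5 counts added to each sum. Intervals are 95% exact Poisson (levels), Clopper-Pearson (shares) or exact conditional binomial (ratios), for counting error only. List medians needed 5 measured members. The code was tested on simulated data.

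The genes named were the 6 markers, Zfp541, the 14 highest and 10 lowest by the smallest or largest ratio to the other mid pachytene clusters, the 6 highest and 6 lowest between libraries, the 5 highest and 5 lowest along pseudotime, and up to 3 members of each list by ratio to the pooled cells. The cluster, its markers and the lists were chosen with earlier results of these data known. Of the genes and lists so chosen, 1 gene and 1 list are not reported here. No doublet caller was run, and leaving out the deepest 5% of cells was an alternative.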

Additional observations from a re-analysis of the deposited data

Results flagged for a closer look

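Prps1l1 was on opposite sides of 0 in the 2 libraries. Its log2 ratio of cluster 7 to the pooled other mid pachytene cells was -0.80 (-1.16 to -0.46) in the library labelled Zfp541-/- and 0.32 (0.22 to 0.42) in the WT library, with 6.46 CPM in knockout-labelled and 550.4 CPM in WT cluster 7. With 1 library per genotype this difference was not tested.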

How the results depend on the processing

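No paired analysis was possible because each genotype had 1 library and no test was made. Of 740 list medians recomputed under alternatives 56 had the other sign, and of 2887 named-gene ratios 70 had, 0 of which were 2-fold in the values as reported. The list medians with a changed sign were within 0.26 of 0. Of gene counts, 61 were within 1.5 times and 41 moved further. Of list medians 22 moved beyond their spread, of named-gene ratios 241 moved beyond their counting interval while 2646 did not, and of shares 15 moved and 15 did not. Limiting the other cells to the pseudotime of cluster 7, where only cells of cluster 2 remained, moved 106 named-gene ratios and left 95. Thinning moved 57 and left 264. Counts are given as higher and lower genes, for cluster 7 over the pooled other mid pachytene cells unless said otherwise, with the knockout-labelled library first. With a minimum of 50 CPM they were 0 and 5, and 16 and 17 in WT, and 450 and 359 between the libraries. With a minimum of 1 CPM they were 46 and 380, and 1037 and 505 in WT, and 2020 and 2922 between the libraries, and the immediate early and heat shock median was -0.70 in the knockout-labelled library. Thinning gave 13 and 50, and 239 and 160 in WT. Against cluster 2 it gave 122 and 23, and 586 and 107 in WT, and along pseudotime 125 and 380 in the knockout-labelled library. Thinned shares of marker-positive cells were 51.6%, 36.8%, 26.04%, 41.0%, 24.2% and 32.2%, and in WT 1.89% for Rundc3b and 2.83% for Nr3c1. Higher genes in the knockout-labelled library numbered 6 with the mean of per-cell CPM, 5 without the deepest 5% of cells and 7 with clusters at equal weight. The last gave medians of 0.0145 for transcription regulators and -0.14 for respiratory subunits there, and 0.0854 for histone methylation in WT. A pseudocount of 5 gave 27 lower genes in WT.

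Median of ratios scaling gave 0 higher genes in the knockout-labelled and 49 in the WT library, 14 and 20 against cluster 2, or 128 and 60 in WT, and 3 lower against cluster 11. It gave ribosomal medians of -0.16, and -0.29 in WT, respiratory medians of -0.20, and -0.35 in WT, a mitochondrial ribosomal median of -0.35 in WT and a histone methylation median of 0.0775 in WT. Limiting the other cells to the pseudotime of cluster 7 left cluster 2 only and gave 21 and 13, and 237 and 23 in WT. They are the counts against cluster 2 under that limit, and adding the UMI limit also gave 21 higher in the knockout-labelled library. Knockout-labelled medians were then 0.20 for the ZFP541 complex, 0.14 for break formation, 0.21 for sex chromosome silencing, 0.45 for piRNA, 0.25 for transcription regulators, 0.42 for histone methylation, -0.23 for respiratory subunits and -0.20 for mitochondrial ribosomal proteins. WT medians were 0.18 for break formation, 0.44 for premeiotic S phase, 0.40 for piRNA and 0.44 for histone methylation. Splitting pseudotime into 2 groups gave 6 and 4. Medians over cells were 0.0102% and, in WT, 0.0115% for X-linked UMIs, 0% in both for Y-linked UMIs, and 2.78% and, in WT, 1.31% for mitochondrial UMIs, or 2.78% without cells above 5%. The cause of these moves was not tested. The alternatives for cluster 2 alone, the shared barcodes, the UMI limit and the scaling against clusters 4 and 11 were chosen after seeing the data. Without the shared barcodes the counts were 2 and 23, and 94 and 76 in WT. The smaller WT sum, 1951399 UMIs against 13154469, limits what could be measured there.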
